A study of Mus musculus with 9 samples.

Results

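The resistin-like molecules are a small family of secreted, cysteine-rich proteins, with 4 genes in the mouse, Retnla, Retnlb, Retnlg and Retn. Probe sets were taken where the platform annotation gives one of these symbols and no other. That found 3 of 45101 probe sets, 1 each for Retnla, Retnlb and Retn, and Retnlg was not analysed here. Of the 3, the probe sets of Retnla and Retn passed the filter on low signals and entered the test, and that of Retnlb did not.

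The samples were whole lungs of 9 female C57BL/6 mice aged 14 weeks, 1 Affymetrix 3' expression array per mouse, taken 14 days after a replication-deficient adenovirus was put into the trachea. AdV-IL4 mice (n = 3) received virus encoding mouse interleukin-4, AdV-IL4d2 mice (n = 3) received virus encoding the splice variant mouse interleukin-4d2, and AdV-NULL mice (n = 3) received the same kind of virus without a cytokine gene. All 9 mice therefore carried an adenoviral infection, and uninfected lungs were not analysed here. The comparisons ask what each form of the cytokine changed relative to the empty virus and where the 2 forms differed.

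Retnla encodes RELM-alpha, a secreted product of alternatively activated macrophages and of airway and alveolar epithelium, and a standard readout of IL-4 and IL-13 acting through the receptor chain Il4ra and the transcription factor Stat6. Retnlb encodes RELM-beta, best known from goblet cells of the gut and also induced in airway epithelium. Retnlg encodes RELM-gamma, found in blood neutrophils and bone marrow. Retn encodes resistin, which in the mouse is made chiefly by fat cells.

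In the GRCm38.p6 assembly, Retnlb (16:48816856-48818892), Retnla (16:48842609-48844461) and Retnlg (16:48872608-48874498) lie side by side on chromosome 16, with gaps of 23717 and 28147 bases. Retn lies apart from them on chromosome 8 (8:3655770-3659818). Promoter sequences of 3 of the 4 members, Retnla, Retnlg and Retn, were taken from RefSeq, as the 250 bases before the gene start on the plus strand of GRCm38.p6. They are shown because Stat6, the factor that IL-4 activates, is known to bind a pair of half-sites, TTC and GAA, with 4 bases of any kind between them. Capitals mark matches to this spaced pair, which was searched on both strands. Retnla is given for chr16:48842359-48842608, Retn for chr8:3655520-3655769, and for Retnlg only the 70 bases around its match, chr16:48872506-48872575.
Retnla: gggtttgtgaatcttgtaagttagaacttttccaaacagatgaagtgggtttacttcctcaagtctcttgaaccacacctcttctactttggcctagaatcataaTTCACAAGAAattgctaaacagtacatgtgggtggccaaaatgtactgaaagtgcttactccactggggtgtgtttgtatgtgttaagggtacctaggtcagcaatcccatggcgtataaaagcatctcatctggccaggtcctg
Retnlg: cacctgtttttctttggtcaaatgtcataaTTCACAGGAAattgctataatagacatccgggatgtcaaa
Retn: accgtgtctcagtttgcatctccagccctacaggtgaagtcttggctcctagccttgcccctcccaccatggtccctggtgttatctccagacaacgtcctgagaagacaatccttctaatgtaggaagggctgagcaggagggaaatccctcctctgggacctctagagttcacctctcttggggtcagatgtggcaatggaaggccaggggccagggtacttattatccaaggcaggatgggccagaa

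The Retnla promoter held 1 match, TTCACAAGAA, which starts 145 bases before the gene. The Retnlg promoter held 1 match, TTCACAGGAA, which starts 72 bases before the gene. The 70 bases around the match in Retnla and the 70 around that in Retnlg, set side by side without gaps, were identical at 51 positions (72.9%). The Retn promoter held 0 matches. Of all 32851 promoters in the table, 5.85% held the spaced pair on either strand within the same 250 bases. The letters TTCNNNGAA, a pair with a spacing of 3 bases bound by other STAT factors, were found in none of the 3 promoters and in 7.02% of all promoters. TTNNGNAA, a relaxed pattern for C/EBP factors, was found on either strand 3 times in Retnla, 1 time in Retnlg and 0 times in Retn, and in 36.8% of all promoters. None of these matches overlapped a match to the pair with 4 bases between. A match of letters does not show that a factor bound there.

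Il4 itself, the gene carried by the viruses, had signals of 379, 301 and 335 in the AdV-IL4 mice and 1172, 944 and 499 in the AdV-IL4d2 mice, against 43.1, 15.8 and 71.6 in the AdV-NULL mice. Every array of both cytokine groups was above every AdV-NULL array. Sftpc, the surfactant protein of alveolar type 2 cells, and Scgb1a1, the secretoglobin of club cells, were bright on all 9 arrays, between 25944 and 41165 and between 34826 and 55926. Signals are linear MAS5 intensities, and the array medians ran from 156 to 171. The ratio of the 3' to the 5' Gapdh control, a sign of RNA integrity and labelling, was 1.54 to 1.80 in AdV-IL4 arrays and 1.35 to 1.57 in AdV-IL4d2 arrays, against 0.955 to 1.45 in AdV-NULL arrays, and its part in the results was not tested.

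Retnla was abundant in every lung, the empty-virus lungs included. Its signal was 44506, 40230.1 and 36815 in the AdV-IL4 mice and 20984.5, 24257 and 21485 in the AdV-IL4d2 mice, against 22537, 38651 and 13767.5 in the AdV-NULL mice. The AdV-IL4 and AdV-IL4d2 arrays formed tight groups that did not overlap each other. The AdV-NULL arrays spanned both groups, with mouse 2 among the AdV-IL4 values and mouse 3 below every other array. The coefficient of variation was 9.51% with AdV-IL4 and 7.92% with AdV-IL4d2, against 50.5% with AdV-NULL. All of these signals were far above the array medians, and the brightest probe set on each array lay between 44793 and 71800. Whether signals this bright still rise in proportion to the RNA was not tested.

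**Figure D1:**
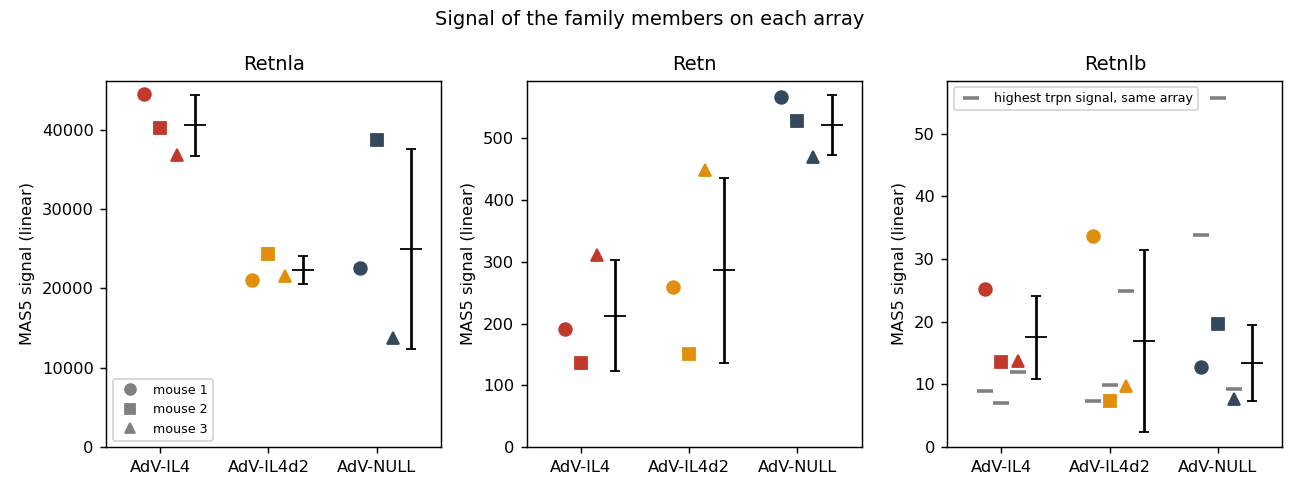
MAS5 signal on a linear scale (vertical axis from 0) of Retnla, Retn and Retnlb on the 9 arrays by virus, with 1 symbol per mouse and the mean ± SD of each group in black. Retnla was between 36815 and 44506 in AdV-IL4 mice and spread from 13767.5 to 38651 in AdV-NULL mice, Retn was highest in the 3 AdV-NULL mice, and Retnlb is drawn beside the brightest signal of trpn, a bacterial control transcript, on the same array (grey bars), which it exceeded in all 3 AdV-IL4 mice, in AdV-IL4d2 mouse 1 and in no AdV-NULL mouse.

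Against the empty virus, Retnla averaged 40517 ± 3854 in AdV-IL4 mice and 24985 ± 12621 in AdV-NULL mice (SD, n = 3 each). The difference in log2(signal + 16) was 0.82 ± 0.26 (SE; 95% interval 0.25 to 1.39), a ratio of 1.76. It did not pass the limma test after Benjamini-Hochberg adjustment over 23824 probe sets (adjusted p = 0.0686, unadjusted p = 0.00897), and the exact two-sided permutation test gave p = 0.2, where 3 arrays against 3 cannot go below 0.1. The groups overlapped through AdV-NULL mouse 2 alone. In whole-lung RNA, more cells of a type and more RNA per cell cannot be told apart, for this gene and all that follow. Without AdV-NULL mouse 2 the difference was 1.20 and passed (limma adjusted p = 0.00174), and without AdV-NULL mouse 3 it was 0.45 (adjusted p = 0.176). Scaled to the hybridisation controls it was 0.37 and to the poly-A controls 0.16, scalings that move all transcripts (limma adjusted p = 0.104 and 0.424).

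With AdV-IL4d2, Retnla averaged 22242 ± 1763, against the same 24985 ± 12621 in AdV-NULL mice. The log2 difference of -0.04 ± 0.26 did not pass (limma adjusted p = 0.962), and its 95% interval of -0.62 to 0.53 allows a change of about the same size either way. Its sign has no meaning here, since it turned to 0.33 without AdV-NULL mouse 2 and was -0.41 without AdV-NULL mouse 3.

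Between the cytokine forms, Retnla was higher in each AdV-IL4 mouse than in every AdV-IL4d2 mouse, by a log2 difference of 0.86 ± 0.26 (95% interval 0.29 to 1.44; ratio 1.82), a direction that turned to -0.066 when arrays were scaled to the poly-A control transcripts. The difference did not pass over all probe sets (limma adjusted p = 0.127, unadjusted p = 0.00655), and the exact permutation p was 0.1, the smallest possible. These groups did not overlap in 22% of all tested probe sets, 11% with AdV-IL4 above and 11% with it below. The spread in this fit is shared by the 3 groups, and the AdV-NULL arrays were the widest. In a fit of the AdV-IL4 and AdV-IL4d2 arrays alone, the same difference had a limma adjusted p of 0.00227, and it also passed without AdV-NULL mouse 2 (0.0196) or mouse 3 (0.0325).

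Retn, the resistin gene, was lower with AdV-IL4. Its signal was 190.3, 136 and 312 in the AdV-IL4 mice and 259, 151 and 448 in the AdV-IL4d2 mice, against 567, 528 and 469.6 in the AdV-NULL mice. Each array of either cytokine group was below every AdV-NULL array, while the AdV-IL4 and AdV-IL4d2 arrays overlapped. Here the AdV-NULL arrays were the tight group. In percent of the AdV-NULL mean, the AdV-IL4 mice held 36.5, 26.0 and 59.8 and the AdV-IL4d2 mice held 49.7, 28.9 and 85.9.

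With AdV-IL4, Retn averaged 213 ± 90.2, against 522 ± 49.0 in AdV-NULL mice (SD, n = 3 each). It fell by 1.30 ± 0.33 on the log2(signal + 16) scale (95% interval -2.03 to -0.58), which is 2.47-fold lower and passed the limma test (adjusted p = 0.0282; exact permutation p = 0.1, the smallest possible). It was the only call among the 2 tested members. Of all tested probe sets, 10.7% were called in this comparison, 5.6% higher and 5.08% lower. In 29.2% the groups did not overlap, with AdV-IL4 arrays wholly above the AdV-NULL arrays in 14.5% and wholly below them in 14.7%. The call was lost in 5 of 9 fits with 1 array left out, which were those without AdV-IL4 mouse 1 (-1.27, adjusted p = 0.0693), AdV-IL4 mouse 2 (-1.04, 0.0857), AdV-NULL mouse 1 (-1.24, 0.0892), AdV-NULL mouse 2 (-1.29, 0.0665) and AdV-NULL mouse 3 (-1.37, 0.0571).

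With AdV-IL4d2, Retn averaged 286 ± 151, against 522 ± 49.0 in AdV-NULL mice. The log2 difference was -0.95 ± 0.33 (95% interval -1.68 to -0.22) and did not pass (limma adjusted p = 0.205, unadjusted p = 0.0146). These groups did not overlap in 21.3% of all tested probe sets, with AdV-IL4d2 wholly below in 10.7% and wholly above in 10.6%. The direct comparison of AdV-IL4 with AdV-IL4d2 gave a log2 difference of -0.35 ± 0.33 (adjusted p = 0.649), with an interval of -1.08 to 0.38. Retn was therefore called in one comparison with the empty virus and not in the other, without a difference between the forms that passed the test. That difference became 0.020 without AdV-IL4d2 mouse 3.

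Over both tested members, limma called 0 for AdV-IL4d2 against AdV-NULL, where 1.32% of all tested probe sets were called (0.928% higher, 0.39% lower). It called 0 for AdV-IL4 against AdV-IL4d2, where 1.75% were called (0.911% higher, 0.835% lower). At an unadjusted p under 0.05 each of these comparisons held 1 of the 2 members, against 14.4% and 16.4% of all tested probe sets. Both comparisons with the empty virus share the same AdV-NULL arrays.

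**Figure D2:**
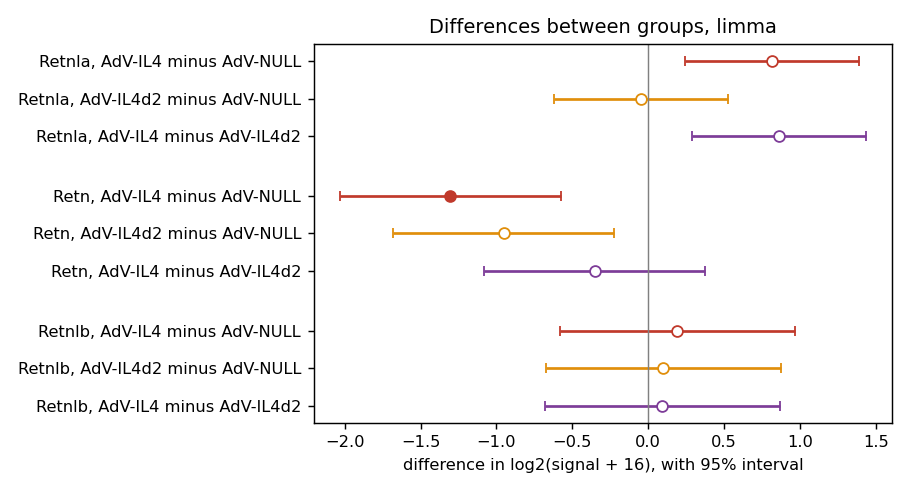
Differences in log2(signal + 16) between groups (horizontal axis) for Retnla, Retn and Retnlb in the 3 comparisons, with 95% intervals of the limma fit; filled symbols have an adjusted p under 0.05. Retn in AdV-IL4 against AdV-NULL (-1.30) was the only filled symbol, and the 3 Retnlb intervals, from the fit without a filter, all included 0.

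Retnlb had low signals in all 3 groups. Its signal was 25.2, 13.6 and 13.7 in the AdV-IL4 mice and 33.7, 7.27 and 9.78 in the AdV-IL4d2 mice, against 12.8, 19.7 and 7.64 in the AdV-NULL mice. All 9 values were far below the array medians, and the 3 groups overlapped. The brightest probe set of trpn, a bacterial transcript not present in mouse RNA, read 8.96, 6.96 and 11.9 on the AdV-IL4 arrays and 7.36, 9.95 and 24.8 on the AdV-IL4d2 arrays, against 33.9, 55.8 and 9.23 on the AdV-NULL arrays. Retnlb was above this control on all 3 AdV-IL4 arrays and on that of AdV-IL4d2 mouse 1, and below it on the other 5. The control itself was brighter on 2 of the AdV-NULL arrays than on any other array, so this split rests on both signals and was not tested. In a fit without a filter on low signals, the log2 differences were 0.19 for AdV-IL4 and 0.10 for AdV-IL4d2 against AdV-NULL, and 0.09 between the forms (limma adjusted p = 0.850, 0.960 and 0.955). In that fit, 4.21%, 0.475% and 0.542% of all probe sets were called in the same order of comparisons. No fold is given, since the signals lay within the range of the control over the 9 arrays (0.987 to 55.8), and this says nothing on whether the gene was silent.

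**Figure D3:**
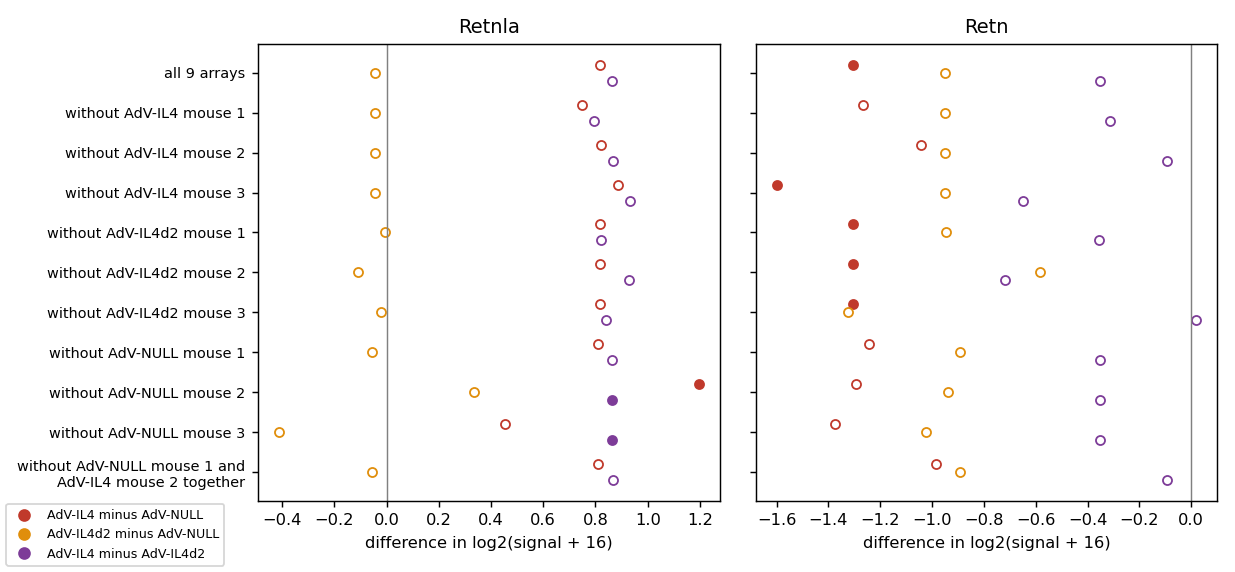
Differences in log2(signal + 16) (horizontal axis) for Retnla and Retn with all 9 arrays and with arrays left out (rows); filled symbols have a limma adjusted p under 0.05. Retnla in AdV-IL4 against AdV-NULL ran from 0.45 to 1.20 with 1 array left out and passed only without AdV-NULL mouse 2, while Retn in the same comparison ran from -1.60 to -1.04 and kept its call in 4 of 9 fits.

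Around the members, genes of the pathway that leads to Retnla were counted. The gene lists here and below were chosen with earlier results of these data known. Of 15 tested genes of the IL-4 receptor and Stat6 pathway, 5 rose and 0 fell with AdV-IL4 (median log2 difference 0.22, against 0.00 over all tested probe sets). The virus-carried Il4 is among the 5, and 5.6% of all tested probe sets rose. Without AdV-NULL mouse 1 and AdV-IL4 mouse 2, whose muscle transcripts stood apart from their groups, 3 of the 15 rose. That fit has fewer arrays in both groups, and calls fell over all tested probe sets as well, to 575 higher and 493 lower in place of 1335 and 1211. The list counts without this pair, here and below, are to be read beside that general loss. Besides Il4, which the virus carried, these were Irf4, a transcription factor of alternative activation (2.24, adjusted p = 0.00499), the receptor coactivator Ppargc1b (0.65, 0.0270), the cytokine signalling inhibitor Cish (0.60, 0.0156) and the phosphatase Ptpn6 (0.59, 0.0231). Il4ra (0.15) and Stat6 (0.12) did not pass. With AdV-IL4d2, 1 of 15 rose, Il4 itself (3.93, adjusted p = 7.69e-05). The sizes for Il4 and Irf4 are approximate, since their AdV-NULL signals reach down to 15.8 and 16.9, within the range of the trpn control. Between the forms, Cish and Ppargc1b were higher with AdV-IL4 (0.92 and 0.91, adjusted p = 0.00521 and 0.0186).

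Retnla was set beside other genes of alternative activation, the macrophage state that IL-4 induces. Of 21 tested genes of that list, which leaves Retnla out, 14 rose and 0 fell with AdV-IL4 (median 0.98). With AdV-IL4d2, 0 rose and 2 fell (median -0.07), Slc7a2, an arginine transporter (-0.44, adjusted p = 0.0389), and Mgl2, a macrophage lectin (-0.56, 0.0460). Between the forms, 11 were higher and 0 lower with AdV-IL4 (median 0.80). Without AdV-NULL mouse 1 and AdV-IL4 mouse 2, the counts were 10 higher, 0 called and 10 higher in the 3 comparisons.

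Arg1, arginase 1, had signals of 1351, 918 and 717 in AdV-IL4 mice and 101, 78.1 and 28.3 in AdV-IL4d2 mice, against 107, 94.2 and 69.0 in AdV-NULL mice. It was 9.33-fold higher with AdV-IL4 than with AdV-NULL (log2 difference 3.22, limma adjusted p = 0.000192). Rnase2a, an eosinophil-type ribonuclease that was written into the list under its older name Ear11, had signals of 2363, 3325 and 2639 in AdV-IL4 mice and 40.6, 22.0 and 28.4 in AdV-IL4d2 mice, against 59.0, 80.9 and 24.1 in AdV-NULL mice. It was higher with AdV-IL4 than with AdV-NULL (5.38, 2.24e-06), a size that is approximate because the AdV-NULL signals reach down into the range of the trpn control, the bacterial transcript. Chil4, a chitinase-like protein, was 10.5-fold higher (3.39, 0.0108). Trem2, a macrophage lipid receptor, was higher by 2.25 (0.0110).

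Chil3, the chitinase-like protein Ym1, was bright on all 9 arrays. Its signal was 40195, 39749 and 35107 in AdV-IL4 mice and 10814.5, 18513 and 16529 in AdV-IL4d2 mice, against 12498, 21651 and 10845 in AdV-NULL mice. AdV-NULL mouse 2 was again the highest AdV-NULL array, but for Chil3 it stayed below every AdV-IL4 array. Chil3 was 2.67-fold higher with AdV-IL4 than with AdV-NULL (1.42, limma adjusted p = 0.00314), did not pass with AdV-IL4d2 (0.06, 0.943) and was higher with AdV-IL4 than with AdV-IL4d2 (1.36, 0.0138). AdV-NULL mouse 2 was the highest of the 3 AdV-NULL arrays in 16 of the 21 genes, against 34.4% of all tested probe sets, a count made after the values were seen. This array was also the highest in 10 of 14 alveolar type 2 and 8 of 11 neutrophil markers, and in 0 of 14 fat cell markers.

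**Figure D4:**
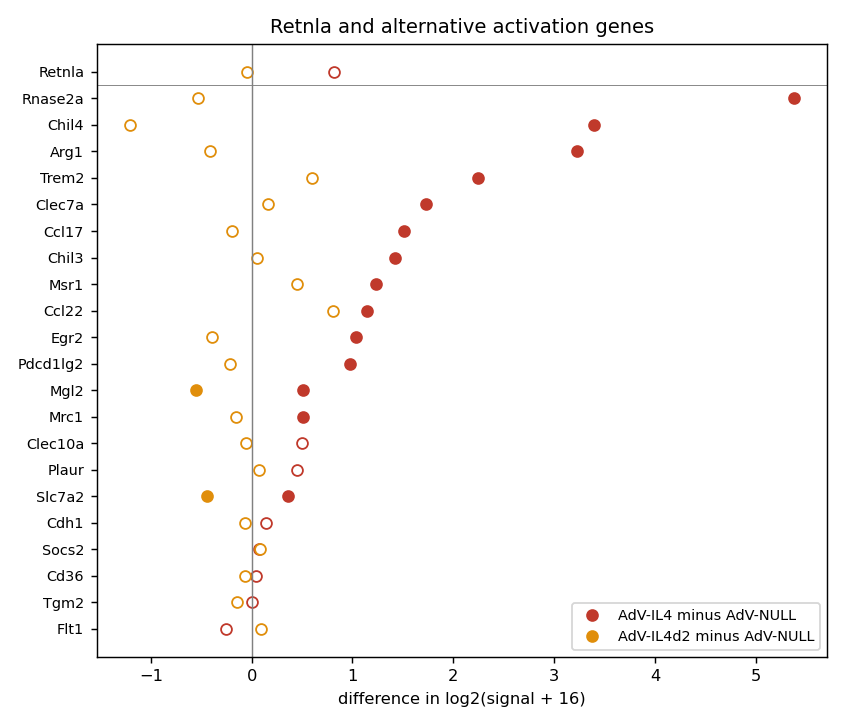
Differences in log2(signal + 16) (horizontal axis) for Retnla, in the top row, and the 21 tested genes of alternative activation in AdV-IL4 and in AdV-IL4d2 against AdV-NULL, which share the AdV-NULL arrays; filled symbols have a limma adjusted p under 0.05. With AdV-IL4 against AdV-NULL 14 of the 21 are filled and Retnla (0.82) is open, and with AdV-IL4d2 against AdV-NULL only Slc7a2 and Mgl2 are filled, both below 0.

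Markers of the cells that make these products moved as well. Of 16 tested markers of monocytes and interstitial macrophages, 7 rose and 0 fell with AdV-IL4, among them the complement genes C1qb (1.54, limma adjusted p = 0.00109), C1qc (1.26, 0.00157) and C1qa (1.04, 0.00109) and the lysosomal glycoprotein Cd68 (1.20, 0.00761). With AdV-IL4d2 3 rose, C1qa (1.12, 0.00167), C1qb (1.08, 0.0283) and C1qc (0.98, 0.0239). Their summed signal was 107005 to 118639 in AdV-IL4 mice and 93278 to 106045 in AdV-IL4d2 mice, against 77623 to 107362 in AdV-NULL mice. Of 19 markers of alveolar macrophages, 6 rose and 4 fell with AdV-IL4 (2 and 3 without AdV-NULL mouse 1 and AdV-IL4 mouse 2), with the integrin Itgax higher (1.59, 0.000103) and the scavenger receptor Marco (-2.55, 0.000226) and the fatty acid carrier Fabp1 (-2.40, 6.83e-05) lower. Fabp1 with AdV-IL4 (50.3 to 55.4) was above the trpn control of its own arrays but within that control's range over the 9 arrays, so its size is approximate. The size for Marco is approximate too, since its AdV-IL4 signals reach down to 34.3. The sum of these markers, which include Chil3 and Mrc1 of the alternative activation list, was 81675 to 88718 in AdV-IL4 mice and 49602 to 59401 in AdV-IL4d2 mice, against 50426 to 69793 in AdV-NULL mice. Chil3 weighs most in this sum, with means of 38350 in AdV-IL4 mice and 14998 in AdV-NULL mice. The mean log2 of the same markers was not raised, at 10.27 to 10.35 with AdV-IL4 and 10.03 to 10.32 with AdV-IL4d2, against 10.33 to 10.70 with AdV-NULL. Their median log2 difference with AdV-IL4 against AdV-NULL was -0.06. Of 14 markers of alveolar type 2 cells, an epithelial source of Retnla, 6 rose with AdV-IL4 and 0 did without AdV-NULL mouse 1 and AdV-IL4 mouse 2. In that smaller fit, 575 of all tested probe sets rose, in place of 1335. Their sum was 225684 to 248639 in AdV-IL4 mice and 203202 to 236287 in AdV-IL4d2 mice, against 162730 to 226456 in AdV-NULL mice. Their part in the Retnla values was not tested.

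Several markers of fat, the tissue that makes resistin in the mouse, were lower with AdV-IL4. Of 14 tested fat cell markers, 6 fell and 0 rose with AdV-IL4 (median -1.43), 0 were called with AdV-IL4d2 (median -0.72) and 0 between the forms (median -0.65). Adipoq, the adipocyte hormone adiponectin, had signals of 111, 39.1 and 229.7 in AdV-IL4 mice and 118, 131 and 643 in AdV-IL4d2 mice, against 1747, 697 and 529 in AdV-NULL mice. It was 7.36-fold lower with AdV-IL4 (-2.88, limma adjusted p = 0.0154). Also lower were Car3, a carbonic anhydrase abundant in fat and muscle (-4.00, 0.0118), and the lipid droplet proteins Cidec (-2.41, 0.00120) and Plin4 (-1.55, 0.0386). The size for Cidec is approximate, since its AdV-IL4 signals (34.4 to 50.4) lay within the range of the trpn control over the 9 arrays. So are those for Adipoq and Plin4, whose signals in AdV-IL4 mouse 2 (39.1 and 55.2) lay within that range. Lipe, the hormone-sensitive lipase, gave 0.22 (0.649) and did not pass. Lep, the gene of the fat hormone leptin, was low on all 9 arrays, with signals between 5.55 and 15.9. Cidec, Fabp4, Lpl and Pparg are on the alveolar macrophage list too.

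The summed signal of the fat markers was 12022, 11340.2 and 13007 in AdV-IL4 mice and 11578, 11114 and 20285 in AdV-IL4d2 mice, against 47723, 25939 and 16887 in AdV-NULL mice. Within each of the 3 groups, the arrays ranked by fat sum as they did by Retn. The brightest genes weigh most in this sum. Car3, abundant in muscle too, gave 21001 of the 47723 in AdV-NULL mouse 1, and 903, 133 and 1233 in the AdV-IL4 mice. By the mean log2 of the same markers, AdV-IL4 mouse 1 (8.72) was above mouse 3 (8.68), the reverse of their Retn order. The fat sum of AdV-NULL mouse 1 was far above that of mouse 3, while their Retn signals of 567 and 469.6 lay close together. Heart and skeletal muscle markers moved the same way, with 10 of 16 lower and 0 higher with AdV-IL4 (median -2.36), and sums of 2462 to 10163 in AdV-IL4 mice and 8530 to 28436 in AdV-IL4d2 mice, against 20199.9 to 100693 in AdV-NULL mice. Without AdV-NULL mouse 1 and AdV-IL4 mouse 2, Retn differed by -0.98 with AdV-IL4 and lost its call (limma adjusted p = 0.178). In that fit 1 of 14 fat markers (Cidec) and 1 of 16 muscle markers were called lower, where calls lower over all tested probe sets were 493 in place of 1211. AdV-NULL mouse 1 held the highest Retn signal, fat sum and muscle sum of its group, and AdV-IL4 mouse 2 the lowest of its own. Smaller differences in these values without both arrays therefore followed from the choice of arrays. Whether the amount of fat or muscle taken with the lung set the Retn signal was not tested.

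**Figure D5:**
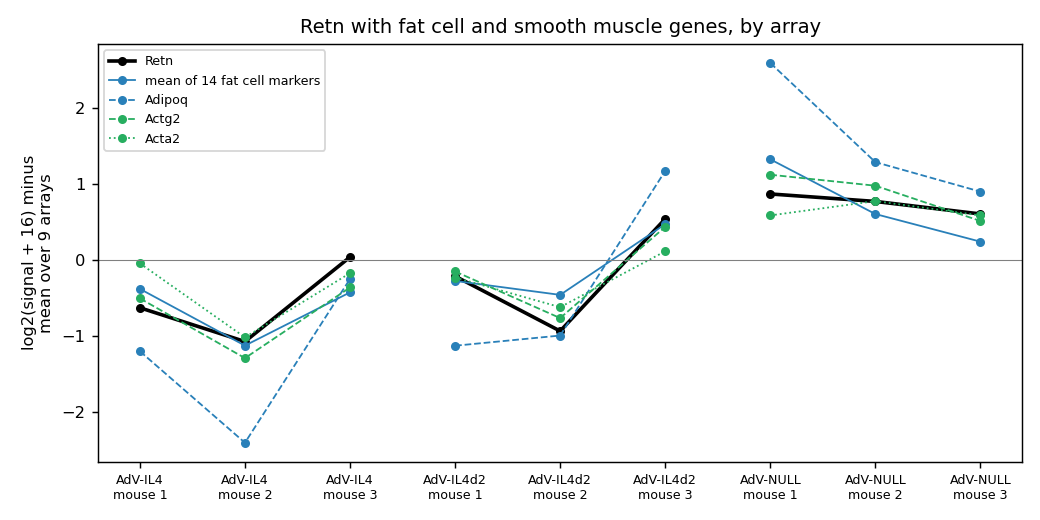
Log2(signal + 16) minus the mean over the 9 arrays (vertical axis) of Retn, the mean of the 14 tested fat cell markers, Adipoq, Actg2 and Acta2 on each array (horizontal axis); lines only join the arrays of a group. Retn and the other profiles are above 0 in all 3 AdV-NULL mice and at their lowest or near it in AdV-IL4 mouse 2, where Adipoq had a signal of 39.1.

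The 5 genes whose profile over the 9 arrays was most like that of Retn were taken. Likeness was the root mean square difference between centred log2 values, and 11983 other genes had a median of 0.72. The nearest was Actg2, the smooth muscle gamma actin, at 0.21, with signals of 371, 208 and 412 in AdV-IL4 mice and 479, 308 and 728 in AdV-IL4d2 mice, against 1181, 1067 and 769 in AdV-NULL mice. It was followed by Tpm2, a tropomyosin (0.27), Gm11266 (0.29), Myl9, a myosin light chain (0.29), and Acta2, the smooth muscle alpha actin (0.29). All 5 were lower with AdV-IL4, by between 1.02 and 1.59 on the log2 scale. This likeness describes the 9 arrays, and the measure favours genes with a Retn-sized difference between groups.

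Genes of the proposed receptors and partners of the family showed 1 call among 9 tested with AdV-IL4 against AdV-NULL, near the 10.7% of all tested probe sets. The same gene was the 1 call between the forms, where 1.75% of all tested probe sets were called. Dcn, the proteoglycan decorin, of which a cleaved form has been proposed as a resistin receptor in mouse fat progenitors, had signals of 2275, 2683 and 2779 in AdV-IL4 mice and 5119, 4037 and 4920.5 in AdV-IL4d2 mice, against 6192, 5492 and 5595.5 in AdV-NULL mice. It was lower with AdV-IL4 than with AdV-NULL (-1.16, limma adjusted p = 8.40e-05) and than with AdV-IL4d2 (-0.86, 0.00298), while AdV-IL4d2 did not differ from AdV-NULL past the threshold (-0.30, 0.223). Cap1, described as a receptor of human resistin, gave -0.06 with AdV-IL4 and -0.04 with AdV-IL4d2, and Tlr4, the endotoxin receptor at which resistin has been reported to act, gave 0.06 and -0.09. Btk, a kinase reported to bind RELM-alpha in the mouse, gave 0.69 and 0.58 (0.0835 and 0.282). None of these 3 passed the test.

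All directions above are relative to the bulk of the transcripts, because each array was scaled to the same mean. Scaling to the poly-A control transcripts, with trpn among them, instead moved the median of all tested probe sets by -0.63 (AdV-IL4 against AdV-NULL), 0.26 (AdV-IL4d2 against AdV-NULL) and -0.90 (AdV-IL4 against AdV-IL4d2). Relative to that shift, Retnla differed by 0.80, -0.03 and 0.84 and Retn by -1.27, -0.96 and -0.31. On the shifted scale itself, 208 probe sets were called higher and 14555 lower with AdV-IL4 against AdV-NULL, in place of 1335 and 1211. Without trpn, which was at background level, the medians moved by -0.77, 0.27 and -1.04 in the same order of comparisons.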

How the data were processed

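Whole-lung RNA of 9 mice (Trizol, 1 array each) was measured on Affymetrix 3' arrays. The deposited values are linear MAS5 signal intensities, 1 per probe set, and each array's trimmed mean is 500. Affymetrix Expression Console 2.0, MAS5 and GCOS are named per the submitters' processing notes, which give no roles. A single summarised intensity carries no probe-level error, so precision is limited by the number of arrays. Replicates are separate mice, per the labels.

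From these values, log2(signal + 16) was fitted with limma 3.58.1 (R 4.3.3, lmFit and eBayes with a trend, 6 residual df) over all 9 arrays, for 23824 probe sets above their array's median on at least 3 of 9 arrays, without 64 control probe sets. Benjamini-Hochberg adjustment ran over all 23824 and calls were made at 0.05. In simulated data with 23824 probe sets, AdV-IL4 against AdV-NULL, 62% of log2 changes of 0.8, 86% of those of -1.5 and 96% of those of 1.5 were called. There, 50 probe sets received each change, and normal noise had 1 spread per probe set, shared by the groups. The data had 2546 calls in this comparison and, for Retnla, unequal spreads, so these shares are not the power for the members. Of 45101 probe sets, 34958 carry 1 gene symbol in the platform annotation, and the probe set with the highest mean stood for a gene. Exact permutation tests used 3 arrays against 3.

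The members and the 13 gene lists were chosen with earlier results of these data known. Named genes were drawn from the members in every sample, per list and comparison up to 4 called genes with the largest difference (the 2 brightest where under 2 were called), the 5 profiles most like a called member, and Il4, Il4ra, Stat6, Adipoq, S100a8 and S100a9. Not every gene picked in this way is named, among them Adipor1 and the muscle genes. Ptpn6, Lep, Cap1, Tlr4 and Btk were added for their known roles, and Lipe as a fat marker that did not pass. Some genes are named only as shared between lists or as not tested. Promoters and gene positions are RefSeq's (GRCm38.p6). Alternatives changed the pseudocount, filter, scaling, variance model, samples in the fit and arrays left out.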

Additional observations from a re-analysis of the deposited data

How the results depend on the processing

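Each value below is AdV-IL4 or AdV-IL4d2 against its comparison group, in log2(signal + 16) unless another pseudocount is named, with the limma adjusted p in parentheses. Retnla in AdV-IL4 against AdV-NULL passed with array weights (0.89, 0.0474) and with the replicate block (0.82, 0.0367), shrank to 0.37 (hybridisation, 0.104), 0.16 (poly-A, 0.424) and 0.021 (poly-A without trpn, 0.923), and ran from 0.45 to 1.20 with 1 array left out. Retnla in AdV-IL4d2 against AdV-NULL turned to 0.046 (hybridisation control scaling), 0.23 (poly-A, with and without trpn) and 0.068 (array weights), and ran from -0.41 to 0.33 with 1 array left out. Retnla in AdV-IL4 against AdV-IL4d2 turned to -0.066 (poly-A) and -0.21 (poly-A without trpn), passed at 0.86 in the fit of those 2 groups alone (0.00227), and ran from 0.79 to 0.93. Retn in AdV-IL4 against AdV-NULL lost its call without a filter (-1.30, 0.0565), without the trend (-1.30, 0.0598), with array weights (-1.19, 0.0585) and without AdV-NULL mouse 1 and AdV-IL4 mouse 2 (-0.98, 0.178), was -1.72, -1.90 and -2.03 under the 3 control scalings, and ran from -1.60 to -1.04. Retn in AdV-IL4d2 against AdV-NULL passed in none of the 21 alternatives run (-1.32 to -0.58 with 1 array left out). Retn in AdV-IL4 against AdV-IL4d2 passed under hybridisation (-0.85, 0.0150), poly-A (-1.21, 3.37e-05) and poly-A without trpn scaling (-1.34, 6.51e-06), where all transcripts shift, and ran from -0.72 to 0.020, with the highest value (0.989) without AdV-IL4d2 mouse 3. Retnlb in AdV-IL4 against AdV-IL4d2 moved to -0.38 (poly-A) and -0.44 (poly-A without trpn), and Retnlb passed in none of its alternatives.

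Called probe sets in AdV-IL4 against AdV-NULL (2546) became 7447 (hybridisation), 14763 (poly-A), 18102 (poly-A without trpn), 1068 (without the pair of arrays) and 1313 to 2210 with 1 array left out. In AdV-IL4d2 against AdV-NULL (314) they became 613 (poly-A), 519 (without trpn), 195 (no trend), 593 (array weights), 200 (without the pair) and 156 to 417. In AdV-IL4 against AdV-IL4d2 (416) they became 244 (no filter), 11160 (hybridisation), 21409 (poly-A), 22499 (without trpn), 165 (no trend), 237 (without the pair) and 110 to 446. Hybridisation scaling split them 295 higher and 7152 lower, 245 and 63, and 89 and 11071 in the same order of comparisons, with poly-A at 208 and 14555, 556 and 57, and 46 and 21363, and without trpn at 152 and 17950, 469 and 50, and 33 and 22466. The cause of these changes was not tested, apart from the shift of all probe sets under the control scalings, where medians moved by -0.43, 0.08 and -0.52 (hybridisation) and -0.77, 0.27 and -1.04 (poly-A without trpn, chosen after seeing the data because trpn was at background level).

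Residuals of same-numbered mice in different groups correlated between -0.0694 and 0.116. They were not compared with those of differently numbered mice, so whether the numbers pair the arrays was not tested. With the replicate block, 2427, 312 and 384 probe sets were called, and apart from Retnla in AdV-IL4 against AdV-NULL no member's call changed. No member has a second probe set, and Retn has no value under a filter asking all 9 arrays to exceed the median, so these alternatives were not run for them. Signal near background limits Retnlb, in which no difference passed.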

Other observations

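Other gene groups of the lung that relate to the family were counted in the same fit. Of 6 tested type 2 chemokines, 5 rose and 0 fell with AdV-IL4 (median log2 difference 1.72), with Ccl9 (2.52, limma adjusted p = 7.74e-05), Ccl8 (2.11, 0.00314) and Ccl6 (1.94, 0.000178) among them. With AdV-IL4d2 0 were called, at a median of 0.78, and 3 were higher with AdV-IL4 than with AdV-IL4d2, Ccl17 (1.70, 0.00521), Ccl9 (1.48, 0.00898) and Ccl6 (1.19, 0.0134). Of 16 tested goblet cell and mucus genes, the tissue type best known for Retnlb, 2 rose with AdV-IL4, the anion exchanger Slc26a4 (4.35, 0.000140) and the lectin Itln1 (3.74, 0.0242), and 0 were called with AdV-IL4d2. The size for Itln1 is approximate, since its AdV-NULL signals, from 2.70 to 184, reach down into the range of the trpn control. Without AdV-NULL mouse 1 and AdV-IL4 mouse 2, 4 goblet cell and mucus genes rose with AdV-IL4. In a count made after the values were seen, AdV-NULL mouse 2 was the highest of the 3 AdV-NULL arrays in 12 of these 16 genes, in 13 of 16 monocyte and interstitial macrophage markers and in 0 of 14 fat cell markers, against 34.4% of all tested probe sets. It was the highest in 5 of 15 genes of the IL-4 receptor and Stat6 pathway, 1 of 9 receptors and partners of the family and 0 of 16 heart and skeletal muscle markers. The remaining lists were all above the share of 34.4%. They held 5 of 6 type 2 chemokines, 3 of 3 eosinophil, 8 of 11 neutrophil and 10 of 14 alveolar type 2 markers. Alveolar macrophage markers gave 11 of 19 and club cell markers 9 of 16.

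Neutrophils are the cells best known for Retnlg, which was not analysed here. Of 11 tested neutrophil markers, 3 rose and 3 fell with AdV-IL4 (1 and 3 without AdV-NULL mouse 1 and AdV-IL4 mouse 2), with the calgranulins S100a8 (-1.97, limma adjusted p = 0.0115) and S100a9 (-2.32, 0.00208) lower and Cd177 (2.06, 0.0208) and the protease inhibitor Slpi (1.28, 0.0443) higher, and 0 were called with AdV-IL4d2. S100a8 and S100a9 were also lower with AdV-IL4 than with AdV-IL4d2 (-2.23, 0.0206 and -2.45, 0.00521). Eosinophil markers were mostly under the filter, with 3 of 14 tested, of which Adgre1 rose (0.61, 0.00923) and Adgre4 fell (-1.12, 0.00736) with AdV-IL4. Adgre1 is on the monocyte and interstitial macrophage list too, and Prg2, Prg3, Epx, Ccr3 and Il5ra were not tested. Of 14 alveolar type 2 markers 6 rose with AdV-IL4, led by Lcn2 (1.03, 0.0148), which is on the neutrophil list too. None did without AdV-NULL mouse 1 and AdV-IL4 mouse 2, a fit where 575 of all tested probe sets rose in place of 1335. Of 16 club cell markers 4 fell, led by Cckar (-1.23, 0.000171) and Cldn10 (-0.92, 0.00184).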
